A study of Homo sapiens with 9 samples.

Results

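The comparison described here set 3 libraries of H1975 cells that received F-78(WT) against 3 that received F-78(NLS Mut), called WT and NLS Mut from here on. The libraries were chosen by their titles, which name the construct and the replicate, and they made up 6 of the 9 RNA-Seq libraries collected. H1975 is an established human lung adenocarcinoma line. All cells were first treated for 24 h with si78, an siRNA that targets the transcript of endogenous GRP78, and then received a pcDNA3-based plasmid for 48 h. The WT plasmid encodes FLAG-tagged GRP78, and NLS Mut is the same protein with alanine in place of 3 lysines of its nuclear localization signal (NLS). The vector group received empty pcDNA3. It gives a reference level, and its libraries also enter the fit, where they share in the estimate of the spread and affect which genes are called. The knockdown is therefore common to all groups, the plasmids were introduced by transient transfection into cells of 1 line, and no group without si78 was analysed here. The labels do not say that replicates came from separate cultures, so every p-value measures the spread between these libraries, which may be technical.

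GRP78, also called BiP and encoded by HSPA5, is the HSP70 chaperone of the endoplasmic reticulum (ER). It binds unfolded secretory and membrane proteins as they enter the ER, and it holds the stress sensors PERK, IRE1 and ATF6 inactive until unfolded proteins draw it away. An NLS is a short stretch rich in lysine and arginine that importins recognise, so that its loss is a way to separate what a protein does in the nucleus from what it does elsewhere. The question put to these libraries was which transcripts differ when GRP78 is present in cells but lacks its NLS.

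The only designed difference between the groups lies in 48 bases of HSPA5, which are shown because they define the comparison. They encode 16 of the 654 residues of the protein, from chr9:125239067-125239114 (GRCh38) on the minus strand, and capitals mark the 3 lysine codons that NLS Mut replaces (K276A, K280A and K287A, numbered from the first methionine).
HSPA5 NLS: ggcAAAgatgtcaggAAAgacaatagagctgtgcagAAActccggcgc

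HSPA5 was measured first as a check of the labels. Its level was 5031, 5814 and 6145 CPM (counts scaled to a common library total) in the WT libraries and 4962, 5156 and 4765 in the NLS Mut libraries, against 359, 383 and 391 with the vector. The constructs raised the transcript over the vector by 3.91 and 3.71 on the log2 scale. The counts do not separate the plasmid transcript from the endogenous one. The difference between the constructs was 0.19 ± 0.05 (log2, SE) with an adjusted p of 0.0795, and 0.20 with an adjusted p of 0.00952 when only the 6 libraries were fitted, and over all alternatives the adjusted p ran from 0.00251 without WT library 1 to 0.366 without WT library 3. The groups overlapped, and the part of this difference in the results below was not tested. The epithelial markers of the line were present (KRT7, KRT8, KRT18, KRT19, CDH1 and EPCAM all above 184 CPM), while surfactant genes were near or at 0 and SCGB1A1 was at 0 in all 6 libraries. Of 17 leukocyte markers 7 were at 0 in all libraries, the summed level of the 17 was 25.5 to 29.4 CPM with WT and 24.3 to 28.6 with NLS Mut, and no leukocyte, endothelial or fibroblast marker passed the test. The summed fibroblast markers were 11.1 to 12.9 CPM with WT and 7.28 to 9.05 with NLS Mut, with DCN, DPT, MFAP5 and PDPN at 0. These sums were mostly 1 gene, PDGFRB, with a median of 8.80 CPM over the 6 libraries beside 0.83 for FAP, the next highest. The part of this difference in the matrix genes below was not tested. In bulk RNA, fewer cells of a kind and less RNA per cell cannot be told apart.

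Of 18653 genes with enough counts to test, 56 were called higher and 38 lower in WT than in NLS Mut at an adjusted p under 0.05 (edgeR's quasi-likelihood test, Benjamini-Hochberg). These were 0.300% and 0.204% of the genes tested, or 0.504% together. The differences were small, with a median size of 0.38 on the log2 scale for the higher genes (0.18 to 1.56) and 0.35 for the lower ones (0.20 to 3.27), and only 3 of the 94 exceeded 1. The 3 libraries of each construct did not overlap for 55 of the 56 higher and 37 of the 38 lower genes, compared with 17.7% of all genes tested. The genes were called on these same libraries, so the lack of overlap describes them and adds no support to the calls. Without adjustment, 1036 and 1119 genes had p under 0.05, and the median difference of all tested genes was -0.01. Of all tested genes 48.85% lay above 0, and counts of list members above or below 0 are to be read beside this share. The number of calls depended on the libraries in the fit. With only the 6 libraries of both constructs, 176 higher and 139 lower genes were called, among them all 94, and without the first vector library 203 and 185 were called. Leaving out a WT or NLS Mut library gave 20 to 68 higher and 7 to 68 lower calls. The calls of 23 genes held under every alternative tried, and the other 71 were lost when at least 1 library was left out. The 23 were C3, C4B, COL1A2, COL12A1, LAMA5, LAMB2, HSPG2, FN1, FBLN2, SPARC, ITGB4, LRP1, ANPEP, DPP4, AQP3, S100A4, CX3CL1 and HSP90B1 among the higher genes and UPP1, MYC, ATF3, KLHDC7B and RN7SL1 among the lower ones.

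**Figure D1:**
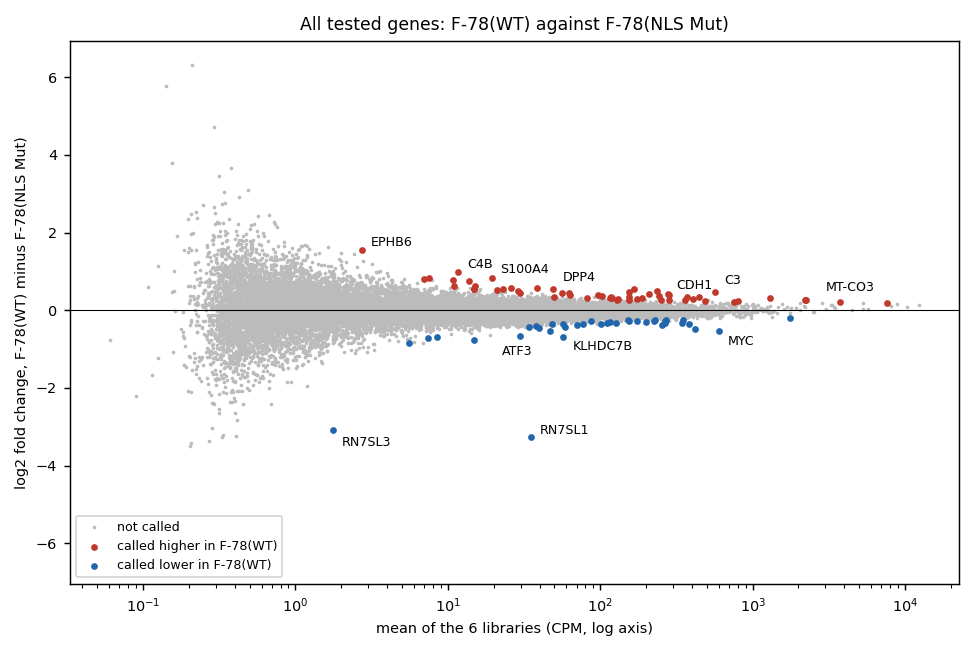
Each point is 1 of the tested genes, with its mean over the 6 libraries on a log axis in CPM and its log2 difference between WT and NLS Mut, positive where WT was higher. The 56 red and 38 blue points are the called genes, most of them at high levels and within 1 log2 unit of 0, with EPHB6, RN7SL1 and RN7SL3 as the exceptions.

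Genes called higher with WT were mostly genes of the cell surface and of the secreted space. Secreted and membrane proteins enter the ER through a hydrophobic N-terminal stretch, the signal peptide or first membrane segment, which the rule for calling did not use. A stretch of 11 residues with a mean Kyte-Doolittle hydropathy of at least 2 lay within the first 35 residues of 32 of the 54 higher protein-coding genes with a sequence (59.3%). The share was 4 of 33 among the lower genes (12.1%), 16.9% among all coding genes tested and 13.7% among genes tested with a mean of at least 30 CPM. With stricter and looser limits of 2.2 and 1.8 the share among the higher genes was 48.1% and 66.7%, and among all tested 13.9% and 19.9%. Over all 2308 coding genes with such a stretch, called or not, the median difference was 0.03, and it was -0.02 over the other 11332. The shares above 0 were 55.7% and 45.4%, and 56.4% and 41.3% at a mean of at least 30 CPM. These are descriptions of the called genes, with no test. The encoded proteins that carry the stretch include laminins, collagens, complement factors and surface peptidases.

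**Figure D2:**
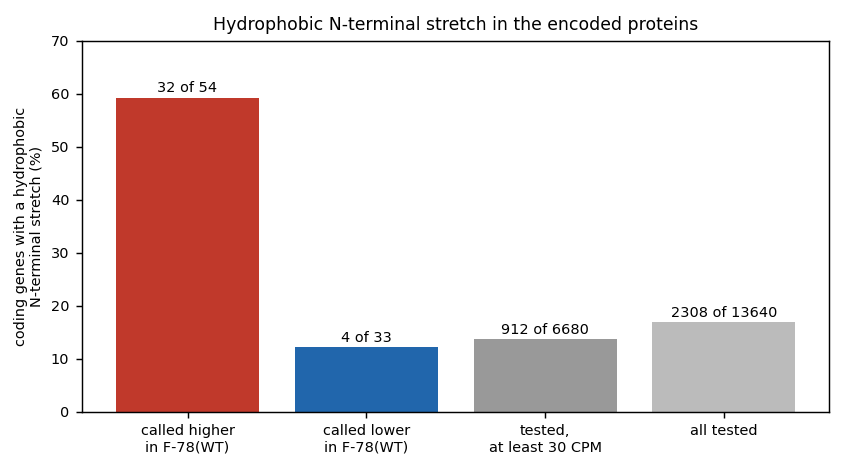
Bars give the percentage of protein-coding genes whose product has a hydrophobic stretch near its N terminus, with the numbers of genes above each bar. The share is 59.3% in genes called higher in WT and 12.1% to 16.9% in the other groups.

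Surface and junction genes of epithelial cells were among the higher calls. DPP4, a serine peptidase of the apical membrane, stood at 63.0, 55.9 and 57.1 CPM with WT and at 38.4, 40.6 and 40.2 with NLS Mut, a difference of 0.56 ± 0.09 (adjusted p = 0.00191). AQP3, a water and glycerol channel, stood at 32.5, 31.5 and 29.7 CPM against 21.4, 20.4 and 20.99 (0.58 ± 0.10, adjusted p = 0.00212). In both genes every WT library lay above every NLS Mut library. The vector libraries of AQP3 were at 32.7, 32.5 and 33.0 CPM, near those of WT and above all 3 NLS Mut libraries.

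TJP3, a scaffold protein of tight junctions, showed the same order, with 20.6, 18.2 and 16.4 CPM for WT, 12.9, 10.98 and 11.8 for NLS Mut and 18.6, 18.9 and 20.95 for the vector (0.63 ± 0.13, adjusted p = 0.0135). LYPD3, a GPI-anchored protein of squamous and invasive epithelia, was at 27.1, 27.7 and 27.3 against 20.04, 18.4 and 17.6 CPM (0.55 ± 0.11, adjusted p = 0.012). MUC16, the mucin known as CA125, was at 356, 287 and 317 against 247, 204 and 261 CPM (0.43 ± 0.10, adjusted p = 0.0458), without overlap. CDH1, which encodes E-cadherin, was at 339, 299 and 296 against 253, 261 and 258 CPM (0.27 ± 0.06, adjusted p = 0.0364). Other genes called higher were the keratin KRT19 (0.23), the desmosome linker PPL (0.38), SCEL, a cornified envelope protein (0.51), the polarity gene LLGL1 (0.27), the laminin receptor BCAM (0.31), the kinase receptor MST1R (0.31), EMP1 (0.45), B4GALT5 (0.23) and the stomach-type calpain CAPN8 (0.74).

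Among 41 tested genes of epithelial or mesenchymal state, 5 were called higher and 0 lower by edgeR's quasi-likelihood test, with 32 above 0 and a median of 0.09. In the fit of the 6 libraries alone, 8 were called higher and 0 lower, beside 176 and 139 of 17524 over all genes. The 5 were CDH1 and KRT19, which mark epithelial cells, and FN1, SPARC and S100A4, which are commonly used to mark mesenchymal ones. The other 36 did not pass, among them the epithelial keratins KRT7, KRT8 and KRT18 and EPCAM. S100A4, a calcium-binding protein tied to cell motility, was at 24.7, 23.9 and 25.5 CPM with WT, 15.1, 13.3 and 13.6 with NLS Mut and 23.5, 24.1 and 18.7 with the vector (0.82 ± 0.12, adjusted p = 0.000348). S100A10, which binds annexin A2 and plasminogen activators at the membrane, was at 370.4, 428 and 384 against 328, 332 and 331 CPM (0.25 ± 0.06, adjusted p = 0.03). PLAU, the urokinase that activates plasminogen, was at 275.1, 286 and 266 against 240.0, 218 and 230.2 CPM (0.27 ± 0.06, adjusted p = 0.03). Of 43 tested genes of the plasminogen system and of metalloproteases and other surface peptidases, 3 were called higher (PLAU, ANPEP and DPP4) and 0 lower, with a median of 0.06.

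**Figure D3:**
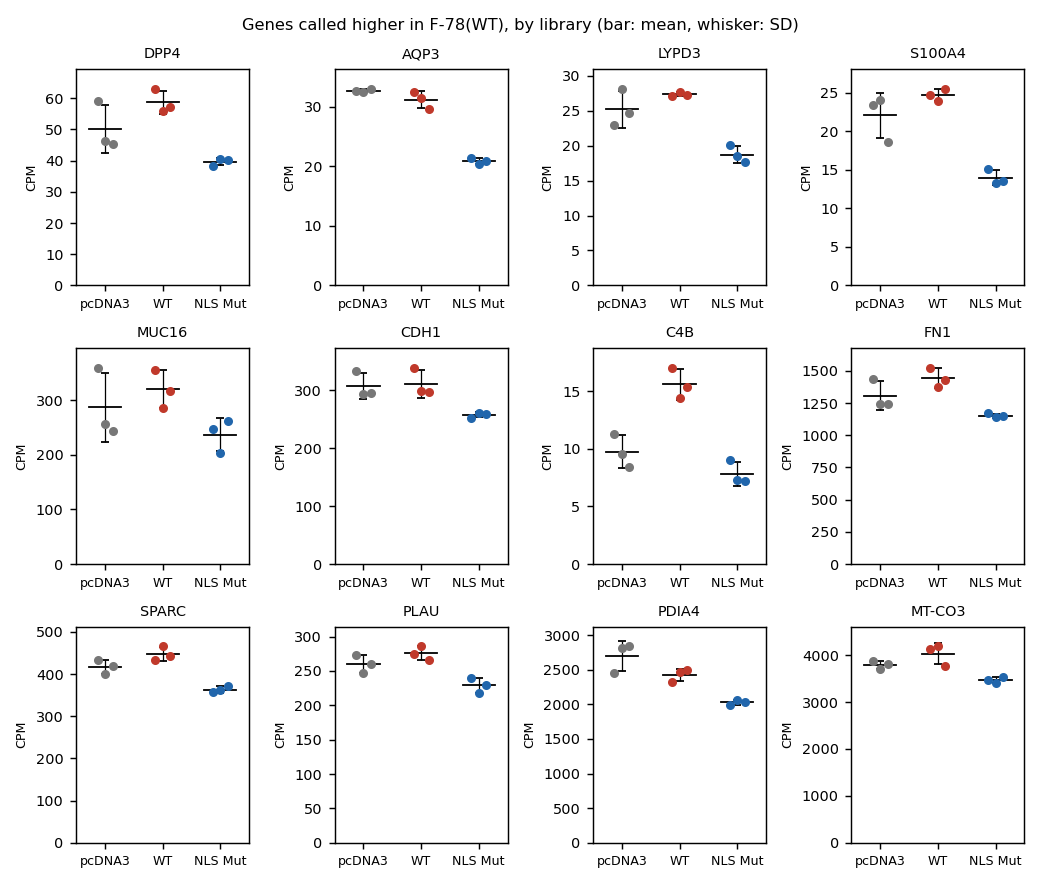
Each panel shows 1 gene called higher in WT as CPM on a linear axis from 0, with 3 libraries each of pcDNA3 vector, WT and NLS Mut, the mean as a bar and the SD as a whisker. In all 12 panels the WT libraries lie above the NLS Mut libraries, while the vector lies at different places between or around them.

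Matrix genes were the second set. Collagens, laminins and glycoproteins such as fibronectin build the basement membrane and the stroma around it, and carcinoma cells make some of them themselves. Of 27 collagens tested, COL1A2 (0.55), COL12A1 (0.43) and COL17A1 (0.39) were called higher and none lower, and 21 lay above 0 with a median of 0.17. COL17A1, the hemidesmosome collagen, was at 70.6, 74.0 and 70.5 CPM against 54.8, 51.4 and 58.4, and the vector libraries were at 82.5, 65.7 and 78.7. The chain that pairs with COL1A2 in type I collagen, COL1A1, was at 202, 229.9 and 212 against 181, 184 and 173 CPM without overlap, but missed the threshold (0.26 ± 0.06, adjusted p = 0.0523). COL5A1, the most abundant collagen, had 0.21 (adjusted p = 0.0718). Of 28 tested enzymes that process and crosslink collagen, 0 were called, 19 lay above 0 and the median was 0.06. The smallest p belonged to BMP1, the procollagen C-proteinase, whose difference was 0.28 with an adjusted p of 0.0552.

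Of 45 matrix glycoproteins and proteoglycans, 4 were called higher and 0 lower, with 35 above 0 and a median of 0.17 beside -0.01 for all genes. FN1, which encodes fibronectin, was the most abundant of the 4, with 1525, 1375 and 1428 CPM for WT, 1170.5, 1142 and 1146 for NLS Mut and 1436, 1240.1 and 1242 for the vector (0.32 ± 0.05, adjusted p = 0.0011). SPARC, a collagen-binding glycoprotein, was at 434, 466 and 442 against 356, 362 and 372 CPM (0.30 ± 0.05, adjusted p = 0.00301). FBLN2 (0.34) and TNC (0.22), a fibulin of the basement membrane and tenascin-C, completed the group. Of 27 laminin and basement membrane genes, LAMA5, LAMB2 and HSPG2 were called (0.50, 0.35 and 0.37) and 22 lay above 0, with a median of 0.13. LAMB3, the most abundant laminin chain, did not follow them, with a difference of 0.02 (adjusted p = 0.93). LAMB3 belongs to the laminin that anchors hemidesmosomes, and LAMA5 and LAMB2 to other laminins of the basement membrane. Of 33 integrin and hemidesmosome genes, ITGB4 (0.46) and COL17A1 were called, with a median of 0.07. The uptake receptor LRP1, which clears proteases and matrix fragments, was called at 0.39.

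Genes of complement and of other secreted factors were also among the higher calls. Of 19 complement and acute phase genes tested, 4 were called higher and 0 lower, with a median of 0.12, although only 11 of the 19 lay above 0. C3, the central component, had the smallest p of all genes (0.48 ± 0.05, adjusted p = 5.07e-06), with 662, 652 and 664 CPM against 502, 459 and 454. C4B was at 17.0, 14.4 and 15.3 CPM with WT, 9.02, 7.29 and 7.20 with NLS Mut and 11.3, 9.52 and 8.44 with the vector (0.99 ± 0.15, adjusted p = 0.000574). C4A was at 13.6, 11.8 and 14.3 against 9.18, 8.28 and 8.23 CPM (0.63 ± 0.14, adjusted p = 0.043). C4A and C4B lie next to each other on chromosome 6 and are almost identical in sequence, so the split of reads between them is uncertain and both are best read as C4. CLU, the chaperone-like clusterin, was called at 0.35. Outside the lists, the secreted genes called were the chemokine CX3CL1 (0.45), CHI3L1 (0.59), which encodes a chitinase-like glycoprotein, the granin SCG2 (0.83) and C1QTNF6 (0.31). The cytokine receptor IL7R was called at 0.30. CX3CL1 was not on the hand-written list of cytokines and NF-kB targets. Of the 41 tested genes on that list 0 were called and 26 lay below 0, with a median of -0.12.

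The remaining higher calls had no common role. EPHB6, an Eph receptor without kinase activity, had the largest difference, but at a low level of 4.29, 4.47 and 3.42 CPM against 1.47, 0.824 and 1.93 (1.56 ± 0.33, adjusted p = 0.021). It was the only called gene among 40 tested Eph receptors, ephrins and guidance genes, whose median was 0.07. Others were GSN, an actin-severing protein that is both cytoplasmic and secreted (0.35), CHP1 (0.36), PLAAT4 (0.49), NABP1 (0.31), RAB5B (0.27), PCCA (0.54), AKR1C3 (0.54), EFHC2 (0.81), TTLL3 (0.77) and the noncoding FER1L4 (0.28). TTLL3 was the called higher gene whose groups overlapped, with 9.90 CPM in the lowest WT and 10.2 in the highest NLS Mut library.

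Of 44 tested ER chaperones and folding enzymes, HSP90B1 and PDIA4 were called higher and 0 lower, and the median was 0.03. Over all tested genes, 0.300% were called higher in the fit of all 9 libraries. In the fit of the 6 libraries alone, 5 of the 44 were called higher and 0 lower, and DESeq2 called 3 higher and 1 lower. Both called more genes everywhere. Over all genes, the fit of the 6 libraries called 176 higher and 139 lower of 17524, and DESeq2 174 and 135 of 18653. HSP90B1 encodes GRP94, the HSP90 of the ER, and was at 2441, 2306 and 2479.8 CPM with WT, 1968, 2069.9 and 1968 with NLS Mut and 2461, 2419 and 2430.3 with the vector (0.27 ± 0.04, adjusted p = 0.000574). PDIA4, a protein disulfide isomerase also known as ERp72, was at 2324, 2460.1 and 2489 against 1992, 2066 and 2033 CPM (0.26 ± 0.05, adjusted p = 0.00572), and at 2449, 2809 and 2838 with the vector. In both genes the vector libraries were nearer to WT or above it. Calreticulin (CALR) had 0.06 (adjusted p = 0.738). Of 50 genes for translocation and ER-associated degradation and 55 for ER to Golgi transport, 0 were called by edgeR with all 9 libraries, with medians of -0.03 and 0.02, and in the fit of the 6 libraries 1 gene of the former was called lower. XBP1, the transcript spliced by IRE1, had a difference of 0.00 (adjusted p = 0.998). The counts do not separate its spliced form from the unspliced one, so its splicing was not measured.

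The promoter of HSP90B1 is shown because genes of ER chaperones share a known ER stress response element, CCAAT and CCACG with 9 bases between them, that NF-Y and ATF6 bind. RefSeq promoters (GRCh38.p14), running from 250 bases before to 50 after the start site, were found for 40 of the 56 higher genes, 27 of the 38 lower ones and 12155 of all tested. The element was present, on either strand, in 14 of the 12155 (0.115%), in 1 of the 40 and in 0 of the 27. HSP90B1 was the one, with copies beginning 194 and 89 bases before the start site, which are in capitals in the stretch chr12:103930196-103930359 (plus strand). PDIA4 had no match to these letters in its window.
HSP90B1 promoter: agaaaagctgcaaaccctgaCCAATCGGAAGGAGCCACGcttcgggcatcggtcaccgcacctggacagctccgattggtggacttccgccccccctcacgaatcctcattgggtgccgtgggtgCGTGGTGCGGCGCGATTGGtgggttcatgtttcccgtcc

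E-boxes were counted because ID proteins act through E-box-binding factors. The general form CANNTG was present in 20 of 40 promoters of higher genes (50%), in 17 of 27 of lower genes (63%) and in 61.3% of all tested promoters. The forms CACGTG, then CAGCTG and then CAGGTG, which are contained in the general form, were present in 7.5%, 12.5% and 20% of the promoters of higher genes and in 9.66%, 17.4% and 19.2% of all. None of these shares among the higher genes stood far above that of all promoters. The transcripts of the ID genes themselves had differences of 0.17 for ID1, 0.18 for ID2, 0.00 for ID3 and 0.21 for ID4, and the smallest adjusted p of the 4 was 0.305. ID2 was at 23.3, 18.5 and 19.3 CPM against 17.6, 17.6 and 18.8. EGFR was at 385, 341 and 340.5 CPM with WT and 365, 357 and 369 with NLS Mut, a difference of -0.03 ± 0.06 (adjusted p = 0.894). Of 25 tested ID proteins and E-box partners and 18 of the EGFR family and its ligands, 0 were called, with medians of -0.05 and 0.11.

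Genes of DNA replication, ribosome biogenesis and nucleotide supply were among the lower calls. DNA replication starts with the licensing of origins, when CDC6 and CDT1 load the MCM helicase, and these genes are classic targets of E2F factors. Of 62 tested genes of DNA replication and licensing, 5 were called lower in WT and 0 higher, and 56 lay below 0 with a median of -0.19, the lowest of the lists with more than 2 tested genes. In the fit of the 6 libraries alone, 9 were called lower, beside 139 of 17524 over all genes. CDT1 was at 36.5, 40.4 and 38.3 CPM with WT, 53.6, 63.1 and 51.3 with NLS Mut and 40.1, 54.5 and 47.1 with the vector (-0.55 ± 0.10, adjusted p = 0.00548). CDC6 was at 58.5, 61.4 and 65.6 against 71.2, 82.2 and 85.6 CPM (-0.37 ± 0.08, adjusted p = 0.03). Both loading factors were lower in every WT library than in any NLS Mut library, as were 37 of the 38 lower genes.

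MCM2 and MCM7 encode subunits of the helicase. MCM2 was at 84.1, 92.4 and 88.4 CPM with WT, 110.5, 118 and 112 with NLS Mut and 87.9, 92.1 and 87.5 with the vector (-0.36 ± 0.07, adjusted p = 0.00548). MCM7 was at 231, 251 and 245 against 287, 300.04 and 288 CPM, with the vector at 222, 273 and 255 (-0.27 ± 0.06, adjusted p = 0.0479). UHRF1, which carries DNA methylation through replication, was at 140.1, 143 and 137 against 172, 164 and 171 CPM, with the vector at 126, 148 and 142 (-0.27 ± 0.06, adjusted p = 0.0479). In these 3 genes every NLS Mut library lay above every WT and vector library, and the WT libraries overlapped with the vector. For MCM2 and UHRF1 the difference of NLS Mut from the vector passed the test (0.35, adjusted p = 0.00647, and 0.28, adjusted p = 0.0267). For MCM7 it did not (0.22, adjusted p = 0.0981), and CDT1 and CDC6 passed against the vector with neither construct. Whether these genes differ in their relation to the vector was not tested. FANCA, of the pathway that repairs DNA crosslinks, was also called lower (-0.35). Of 70 tested genes of mitosis and G2/M, 0 were called, 63 lay below 0 and the median was -0.12. MKI67, the proliferation marker, had -0.11 (adjusted p = 0.439).

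Promoter stretches of the called replication genes are shown because each holds a word of the E2F type, which the rule for calling did not use. The words TTTCCCGC, then TTTGGCGC, then TTTCGCGC and then TTTGCCGC were searched on both strands. At least 1 of these words was in 6 of 27 promoters of lower genes (22.2%), 1 of 40 of higher genes (2.5%) and 623 of 12155 of all tested (5.13%). All 5 called replication genes and FANCA made up the 6, so the share describes the replication genes rather than the lower genes in general. Among the replication genes that were not called, 19 of 47 promoters held a word (40.4%). Capitals mark the matches, including a pair that overlaps in MCM2, and each line gives the gene strand 5′ to 3′ (GRCh38.p14). The stretches are from chr3:127598393-127598444 (MCM2), chr17:40287866-40287913 (CDC6), chr16:88803734-88803781 (CDT1), chr19:4909467-4909514 (UHRF1) and chr16:89816792-89816839 (FANCA, minus strand).
MCM2: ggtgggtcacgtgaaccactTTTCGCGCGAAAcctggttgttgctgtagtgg
CDC6: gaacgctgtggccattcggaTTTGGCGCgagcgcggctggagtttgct
CDT1: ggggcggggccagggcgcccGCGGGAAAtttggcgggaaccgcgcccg
UHRF1: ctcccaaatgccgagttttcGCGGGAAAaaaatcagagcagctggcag
FANCA: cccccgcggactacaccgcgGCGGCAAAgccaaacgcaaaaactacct
The match began 2 bases after the start site in MCM2, 7 after it in CDC6, and 35, 14 and 172 bases before it in CDT1, UHRF1 and FANCA. MCM7 had matches 187 and 9 bases before its start.

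MYC, the transcription factor that drives ribosome production and nucleotide synthesis, was at 431, 537 and 502 CPM with WT, 714, 731 and 678 with NLS Mut and 603, 719 and 749 with the vector (-0.53 ± 0.07, adjusted p = 9.49e-05). Against the vector the difference was -0.49 for WT (adjusted p = 0.000242) and 0.04 for NLS Mut (adjusted p = 0.896). MYC was chosen on libraries that both of these comparisons reuse, so they are no independent evidence. Of 92 tested genes of the MYC network and ribosome biogenesis, 4 were called lower and 0 higher, and 78 lay below 0, with a median of -0.16. The groups did not overlap, with WT lower, in 48 of the 92 (52.2%), beside 9.42% of all genes tested. Beside MYC the called genes were RRP9, a U3 snoRNP protein (-0.36), DKC1, the pseudouridine synthase dyskerin (-0.24), and TCOF1, the nucleolar treacle protein (-0.27). RRP9 was at 46.7, 51.1 and 52.2 against 61.8, 67.9 and 62.5 CPM. DKC1 was at 208, 218 and 203 against 248, 253 and 245. The nucleolar proteins NCL and NPM1 had -0.17 and -0.09 (adjusted p = 0.0922 and 0.443). PVT1, the noncoding neighbour of MYC, was called at -0.24. The ribosomal proteins themselves differed little, with a median of -0.05 over 77 genes and 0 calls.

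Nucleotide and amino acid supply followed. Of 46 tested genes on the hand-written list of nucleotide and polyamine synthesis, 3 were called lower and 0 higher, with a median of -0.09. CAD, which starts pyrimidine synthesis, was at 204, 199.9 and 206 CPM against 255, 249 and 240.4 (-0.29 ± 0.06, adjusted p = 0.012). UPP1, uridine phosphorylase, is on this list although it breaks uridine down rather than making it. It was at 319.7, 366 and 371 against 508, 488 and 474 (-0.48 ± 0.06, adjusted p = 5.85e-05). ODC1, the first enzyme of polyamine synthesis, was called at -0.37. In each of the 3 genes the WT libraries all lay below the NLS Mut libraries. Of 32 tested genes of amino acid synthesis and transport, SLC3A2, SLC38A1 and ODC1 were called lower, and 26 lay below 0 with a median of -0.12. SLC3A2, the heavy chain of several amino acid transporters, was at 302, 361 and 343 CPM with WT, 431, 435 and 413 with NLS Mut and 369.5, 404 and 439 with the vector (-0.35 ± 0.06, adjusted p = 0.00548). SLC38A1, a glutamine transporter, was called at -0.25, and CD320, the receptor for the vitamin B12 carrier, at -0.31.

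Some stress genes of the PERK branch were also among the lower calls. PERK slows translation and raises ATF4, whose targets include ATF3 and the gene for CHOP. Of 35 tested genes of this branch, ATF3, GADD45A and STC2 were called lower and 0 higher, and the median was -0.08. GADD45A, a growth arrest gene, was at 48.1, 53.7 and 48.1 CPM with WT, 67.0, 67.7 and 65.7 with NLS Mut and 63.8, 75.6 and 78.3 with the vector (-0.42 ± 0.08, adjusted p = 0.012). ATF3 was called at -0.65 and STC2, a secreted stanniocalcin, at -0.29. DDIT3, which encodes CHOP, was at 29.9, 35.5 and 33.7 against 39.8, 44.2 and 43.9 CPM, but missed the threshold (-0.37 ± 0.09, adjusted p = 0.0606). For ATF3, GADD45A and STC2 the difference from the vector with WT was -0.83, -0.54 and -0.33, which passed the test. With NLS Mut it was -0.18, -0.12 and -0.04, with adjusted p-values of 0.431, 0.582 and 0.891. These genes too were chosen on libraries that both comparisons reuse.

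Of 37 tested genes on the cytosolic heat shock list, which also holds the mitochondrial HSPA9, 2 were called lower in WT and 0 higher. Of the 37, 29 lay below 0, and the median was -0.10. HSP90AA1, the inducible cytosolic HSP90, was at 1669.6, 1585 and 1659.5 CPM with WT, 1806, 1972 and 1858 with NLS Mut and 1454, 1468 and 1413 with the vector (-0.20 ± 0.04, adjusted p = 0.031). Against the vector the difference was 0.18 for WT (adjusted p = 0.0506) and 0.38 for NLS Mut (adjusted p = 9.12e-06). FKBP4, an HSP90 cochaperone, was at 98.2, 102 and 95.1 CPM with WT, 119.8, 125 and 126 with NLS Mut and 90.2, 107 and 103 with the vector (-0.33 ± 0.07, adjusted p = 0.0226). The WT libraries of FKBP4 lay among those of the vector (-0.02, adjusted p = 0.941). HSPA8, the constitutive HSP70, had -0.18 (adjusted p = 0.0672). The 15 subunits and partners of the chaperonin TRiC/CCT had a median of -0.15 with 0 calls, and 12 of them lay below 0. The mitochondrial proteins PPIF, a matrix cyclophilin, and CYCS, cytochrome c, were called lower at -0.32 each. Genes of nuclear import and export, the machinery that reads an NLS, gave 0 calls among 40 tested, with 37 below 0 and a median of -0.10.

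**Figure D4:**
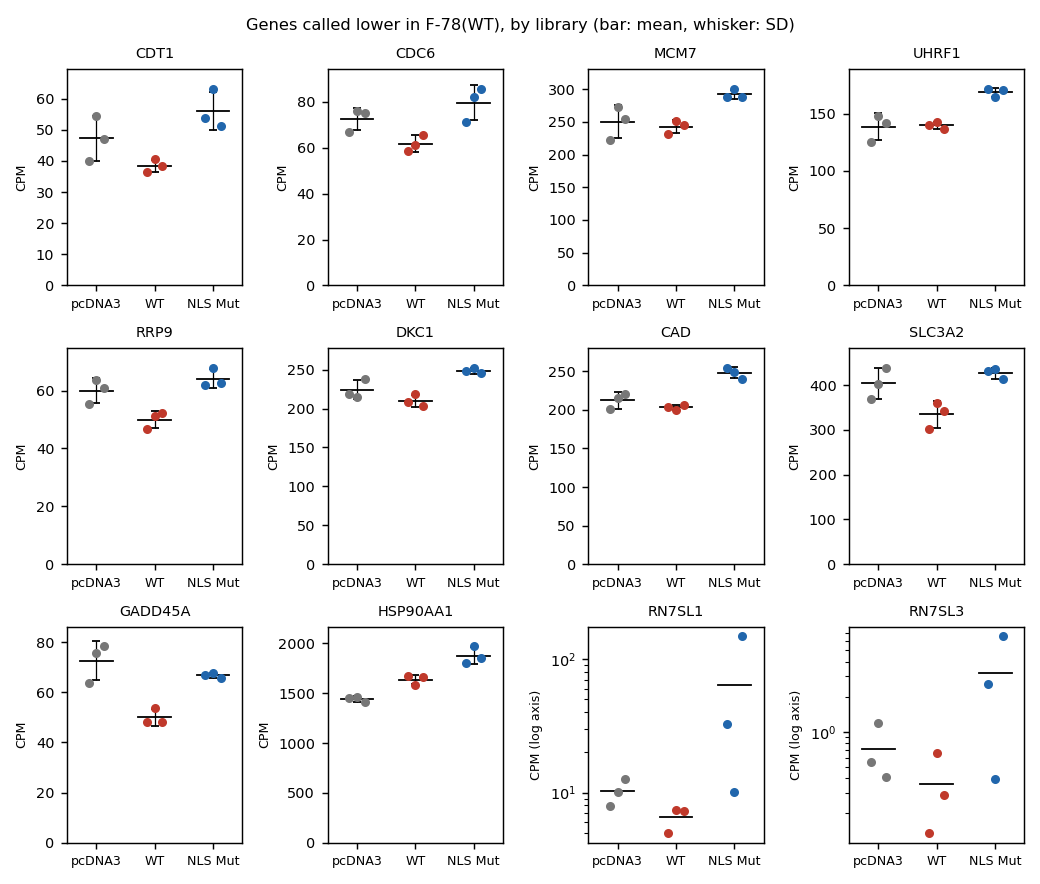
Each panel shows 1 gene called lower in WT as CPM in 3 libraries each of pcDNA3 vector, WT and NLS Mut, with the mean as a bar and, on the linear axes, the SD as a whisker. RN7SL1 and RN7SL3 are on log axes without whiskers, and 2 of their 3 NLS Mut libraries lie far above the other one.

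Of 15 tested genes of the mitochondrial genome, MT-CO3 and MT-CO2, subunits of cytochrome c oxidase, were called higher in WT, and 14 lay above 0 with a median of 0.13. MT-CO3 was at 4128, 4191 and 3773 CPM against 3461, 3402 and 3542 (0.22 ± 0.04, adjusted p = 0.00606). MT-CO2 was at 8748, 7571 and 7826 with WT, 6849, 7407 and 7109 with NLS Mut and 6925, 6793 and 6660.4 with the vector (0.18 ± 0.04, adjusted p = 0.0479). The 77 nuclear genes of the respiratory chain had a median of -0.02, with CYCS as the single call.

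**Figure D5:**
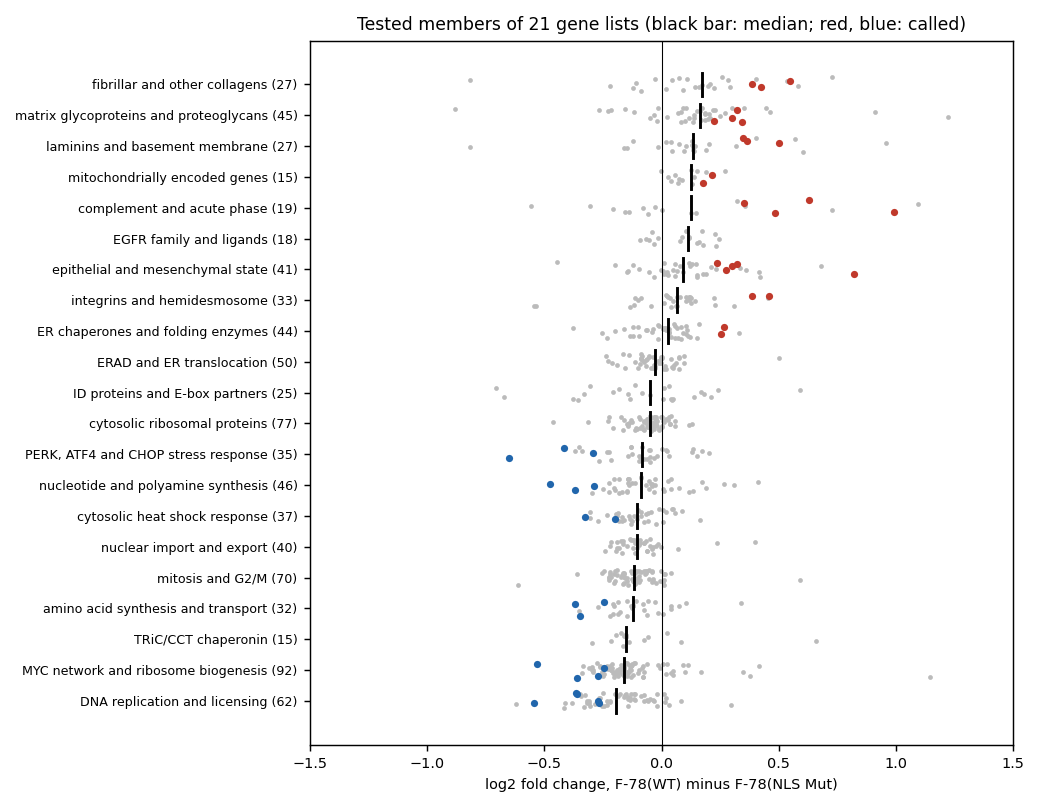
Points are the tested members of 21 gene lists (numbers in parentheses) along the log2 difference between WT and NLS Mut, with called genes in red or blue and the median as a black bar. Medians run from -0.19 for DNA replication to 0.17 for collagens, and most members lie within 0.5 of 0.

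RN7SL1 and RN7SL3 had the largest differences of all called genes and the least even libraries. Both lie on chromosome 14 and encode copies of 7SL, the RNA of the signal recognition particle, which is multicopy and made by RNA polymerase III, so the assignment of reads to a copy is uncertain. RN7SL1 was at 4.97, 7.36 and 7.28 CPM with WT, 32.5, 10.1 and 149 with NLS Mut and 7.90, 10.1 and 12.6 with the vector (-3.27 ± 0.49, adjusted p = 0.000462). RN7SL3 was at 0.136, 0.655 and 0.289 against 2.57, 0.392 and 6.58 CPM (-3.07 ± 0.70, adjusted p = 0.0382), and it was the lower gene whose groups overlapped. NLS Mut library 3, the shallowest of all, carried most of both signals, and library 2 was at or near the vector level. Without library 3 the difference was -1.68 for RN7SL1 (adjusted p = 0.00574) and -1.98 for RN7SL3 (adjusted p = 0.418).

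The remaining gene lists held few or no calls. Of 21 tested genes of lipoprotein binding and uptake, LRP1 was the single call (median 0.08). Of 39 genes of sterol and fatty acid synthesis 0 were called, with 28 above 0 and a median of 0.06. SCD, the desaturase that makes monounsaturated fatty acids, had 0.17 (adjusted p = 0.08). Of 48 immediate-early and AP-1 genes the calls were MYC and ATF3, with a median of -0.06. Of 66 genes of the actin cytoskeleton and migration, 1 was called higher (S100A4) and 1 lower, and the median was 0.00. Medians of the other lists with 0 calls were 0.06 over 43 interferon-stimulated genes, 0.05 over 61 genes of the lysosome and glycosylation, 0.01 over 19 genes of MHC class I presentation and 40 of hypoxia and glycolysis, -0.02 over 38 TGF-beta and YAP targets, and -0.07 over 24 aminoacyl-tRNA synthetases and 34 proteasome genes.

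Lists without a call in the edgeR fit of all 9 libraries held genes with an unadjusted p under 0.05, a level that 5.55% of all tested genes passed as higher and 5.999% as lower. There were 10 higher and 0 lower such genes among 39 in sterol and fatty acid synthesis, 11 and 2 among 43 interferon-stimulated genes, 11 and 2 among 61 of the lysosome and glycosylation, 5 and 0 among 19 of MHC class I presentation, 6 and 1 among 28 collagen-processing enzymes, and 3 and 0 among 18 of the EGFR family. There were 0 higher and 14 lower among 70 genes of mitosis, 1 and 12 among 40 of nuclear transport, 1 and 8 among 15 of TRiC/CCT, 1 and 8 among 41 on the cytokine list, 0 and 6 among 24 aminoacyl-tRNA synthetases, 4 and 6 among 40 of hypoxia and glycolysis, and 3 and 5 among 25 on the ID list. TGF-beta and YAP targets had 3 and 4 of 38, above both shares. Near the share of all genes or under it were ER translocation and degradation (0 and 4 of 50). So were ER to Golgi transport (1 and 1 of 55), proteasome (0 and 2 of 34) and ribosomal proteins (0 and 2 of 77). The edgeR fit of the 6 libraries called 176 higher and 139 lower of 17524 genes in all, among them members of several of these lists. It called 4 higher interferon-stimulated genes and 3 higher genes each in the sterol, lysosome and collagen-processing lists. It also called 3 lower in nuclear transport, 2 lower aminoacyl-tRNA synthetases, and 1 higher and 2 lower TGF-beta and YAP targets. It called 1 higher gene of MHC class I presentation and 1 lower gene each of ER translocation and degradation, TRiC/CCT, the cytokine list, mitosis and hypoxia, and 0 in the others. DESeq2 called 174 higher and 135 lower of 18653 genes in all. Among these lists it called 4 higher genes each in the sterol, interferon and lysosome lists and 3 lower cytokine genes. In any other of these lists it called at most 2 genes in each direction.

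Other lower calls were the kelch protein KLHDC7B (-0.70), the architectural chromatin protein HMGA1 (-0.32), the deacetylase HDAC9 (-0.40), the polycomb protein SCML2 (-0.68), the tumour suppressor RASSF1 (-0.43), the heparan sulfate sulfotransferase HS6ST2 (-0.45), UAP1 (-0.26), AGO2 (-0.29), the glutamate receptor subunit GRIN1 (-0.83), the dynein DNAH17 (-0.71) and the antisense RNA HIF1A-AS3 (-0.76). HIF1A-AS3 was counted without strand, so its reads cannot be told from those of a gene it overlaps. GRIN1 and DNAH17 were below 10 CPM in all 6 libraries.

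The vector libraries give each construct's own value, and they are shared by both comparisons and by the fit. For the 56 higher genes the vector mean lay between the constructs in 47, above both in 8 and below both in 1, and the median difference from the vector was 0.12 for WT and -0.29 for NLS Mut. For the 38 lower genes it lay between them in 31, above both in 5 and below both in 2, with medians of -0.24 and 0.19. Against the vector, 0.214% of all tested genes were called higher and 0.343% lower in WT, and 0.295% higher and 0.499% lower in NLS Mut. Of the 56 higher genes, 24 were called lower in NLS Mut than with the vector, among them LAMA5 (-0.45), GSN (-0.42), CX3CL1 (-0.46) and S100A4 (-0.66), and 3 were called higher in WT, namely C4B (0.68), CHP1 (0.31) and MT-CO2 (0.24). Of the 38 lower genes, 8 were called lower in WT than with the vector and 6 higher in NLS Mut. Since the genes were chosen on libraries that these comparisons reuse, nothing is read from these counts.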

How the data were processed

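RNA-Seq was performed on total RNA of 9 libraries. For each library the authors deposited counts of reads on genes in the layout of STAR, not normalized. The submitters' processing notes name STAR 2.7.9a, DESeq2 1.36.0 and GRCh38.p14. The annotation release is not given in the sources used here, and GENCODE release 29 (GRCh38), which holds 58342 of the 61544 genes, was used for positions, gene classes, GC content, length and coding sequences. The unstranded column was used, because 50.6% to 51.9% of strand-specific counts fell on the forward strand. The 4 summary lines of each library name no gene, held 27.6% to 30.7% of its reads and were left out. The 6 libraries compared had 17671055 to 26220783 counted reads.

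Counts of all 9 libraries were filtered (filterByExpr), scaled by TMM (factors 0.989 to 1.02) and entered in 1 edgeR 4.0.16 quasi-likelihood model in R 4.3.3, with 1 coefficient per group. The SE of a log2 difference is its size over the square root of F. Benjamini-Hochberg adjustment covered all 18653 genes. The median biological coefficient of variation was 11.2%. With 3 libraries a group, the smallest p of an exact permutation test is 0.10, so tests rest on the spread shared across genes. No replicate pair agreed within sampling noise (chi-square per degree of freedom 3.55 to 12.7). The fits were tested on simulated data.

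The members, the 43 hand-written gene lists and the tests were chosen with earlier results of these data known. Lists are described by counts and medians only. Named genes were HSPA5, EGFR and ID1 to ID4, the 15 smallest p-values and 10 largest changes in each direction, and called list members. Of the most abundant and 3 smallest-p members of the lists described, only some are named. Other called genes are named to account for the calls, and a few items are not reported here. XBP1, CALR, COL1A1, DDIT3, HSPA8, MKI67 and NCL were named for their known roles after their values were seen. Promoters and E2F and ER stress motifs were added after the data were seen, unlike E-boxes. The alternatives were DESeq2 1.42.0, other normalizations, filters and library sets, a replicate block, GC and length corrections (loess, span 0.3), thinning to 17671055 reads, a threshold of 0.01 and leaving out each library. Figures were drawn with matplotlib 3.10.9.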

Additional observations from a re-analysis of the deposited data

How the results depend on the processing

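Each group has 3 libraries, and thinning all of them to the depth of the shallowest gave 73 higher and 43 lower calls, so fewer reads did not lower the count. No called gene changed direction under any alternative. In place of 56 higher and 38 lower genes, 174 and 135 were called by DESeq2, 268 and 227 by DESeq2 on the 6 libraries, 125 and 100 without a filter, 87 and 62 at a mean level over 1 CPM, 176 and 139 with only the 6 libraries, 195 and 229 with the GC and length correction, and 24 and 10 at an adjusted p under 0.01. The labels link replicates of different groups only by a number. Deviations from the group mean had r of -0.02 to -0.01 between same-numbered WT and NLS Mut libraries, and the vector libraries were not compared in this way. The replicate block gave 110 and 102 calls, or 213 and 276 with the GC and length correction. Whether same-numbered libraries were prepared together was not tested. Leaving out 1 library gave 20 to 203 higher and 7 to 185 lower calls. The lower calls fell to 28 with DESeq2 size factors, and the cause of these shifts was not tested. Among uncalled genes, ID3 had -0.0085 with the replicate block, -0.0008 with the block and the GC and length correction, -0.0262 after thinning, and -0.1385 to 0.1305 when 1 library was left out. On leaving out 1 library, EGFR ran from -0.0872 to 0.0063, BHLHE40 from -0.0043 to 0.0957, CSF1R from -0.0432 to 0.0868, IPO7 from -0.0648 to 0.0174, PECAM1 from -0.0427 to 0.3852, RPS2 from -0.0437 to 0.0013 and SEL1L from -0.0361 to 0.0224.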
